A study of Mus musculus with 7 samples.

Results

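This report follows 10 adhesion genes, chosen by name, of the 55341 genes in the count table: Vcam1 and Icam1, which encode membrane ligands, and the integrin subunit genes Itgal, Itgam, Itgax, Itgb2, Itga4, Itgb1, Itgav and Itgb5. The libraries were bulk RNA-seq of FACS-sorted CD11b+CD45low microglia, the resident macrophages of the brain, from the cortex of 14-week-old 5xFAD mice on a C57BL/6 background, and the study used only female animals. 5xFAD mice co-express mutant human APP and PS1 from the neuronal Thy1 promoter and deposit amyloid beta. Each recipient had been injected in the neocortex with embryonic cortical cells of WT C57BL/6 mice, and 4 weeks later microglia were sorted from the dissected graft (inside graft, 3 libraries) and from small pieces of cortex close to it (outside graft, 4 libraries). Both groups therefore carried the 5xFAD transgenes and came from injected brains, and no library came from a mouse without a graft. Whether cells of several animals were pooled in a library, or whether a graft and an outside piece came from 1 mouse, is not stated, so the spread between libraries may be partly technical. All 10 genes passed the filter on low counts, which left 15257 genes to test.

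Integrins are membrane receptors built of 1 alpha and 1 beta subunit that bind matrix proteins or ligands on other cells. Itgb2 encodes the beta2 chain of leukocytes, which pairs with the products of Itgal (LFA-1), Itgam (Mac-1, or complement receptor 3) and Itgax (complement receptor 4), and ICAM-1 is a ligand of LFA-1 and Mac-1. VCAM-1 is bound by VLA-4, the pair of the Itga4 and Itgb1 products, while the Itgav product pairs with several beta chains, Itgb5 among them, and binds RGD-containing ligands such as vitronectin. Microglia are known for Mac-1 and for a high level of Itgb5, and Itgax is a gene of plaque-associated microglia. The antibody used in the sort, CD11b, binds the Itgam product, so each library holds cells chosen for Itgam protein and a comparison of Itgam between groups was made within that gate.

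Total counts ran from 18644807 to 25882122 per library. The 8 microglia markers summed to 42409 to 49145 CPM (counts scaled to a fixed library total) inside and 48242 to 54158 outside. The groups did not overlap in the summed markers of neutrophils, monocytes, dividing cells and T and NK cells, which were higher inside, and of astrocytes, which were lower inside. They overlapped in all other marker sums, those of border-associated macrophages and dendritic cells among them. Taken singly, the groups did not overlap for 5 of 6 neutrophil, 4 of 4 dividing cell, 2 of 5 monocyte and 1 of 4 tested astrocyte markers. The monocyte sum was mostly Chil3 (587, 67.6 and 1189 CPM in inside graft 1, 2 and 3). The astrocyte sum was mostly Slc1a3 (245 to 287 CPM inside and 320 to 347 outside). Of the 4 tested astrocyte markers, 2 had a positive and 2 a negative log2 fold change, inside minus outside. The 6 neutrophil markers, led by S100a8, summed to 6486, 648 and 13618 CPM in inside graft 1, 2 and 3, against 0.640, 0.311, 290.0 and 18.1 CPM in outside graft 1 to 4, although antibodies to Ly6G, Ly6C, CD3 and CD45R are listed as lineage markers of the gate. The 5 monocyte markers, led by Chil3, summed to 651, 76.6 and 1356 CPM inside and 6.35 to 26.8 CPM outside, the 7 markers of border-associated macrophages, led by Mrc1, to 113, 16.7 and 121 CPM inside and 5.96 to 17.8 outside, and the 4 markers of dividing cells, led by Top2a, to 88.2, 62.3 and 90.7 CPM inside and 5.39 to 28.7 outside. The 6 dendritic cell markers, led by Zbtb46, summed to 14.6, 10.0 and 22.6 CPM inside and 4.32 to 11.3 outside. Of the 8 T and NK cell markers 0 passed the filter on low counts, and Cd3d and Ncr1 were at 0 in every library. The T and NK cell sum was 1.86 to 11.96 CPM inside and 0.160 to 0.764 outside. Nkg7 alone was at 2.36, 0 and 11.96 CPM in inside graft 1, 2 and 3 and at 0 in every outside library. The sums were 28.1 to 39.4 CPM inside and 33.9 to 37.9 outside for B cells (led by Cd79b), 0.510 to 1.95 and 0.133 to 2.93 for pericytes and fibroblasts (Pdgfrb), 247 to 298 and 326 to 350.3 for astrocytes (Slc1a3, which microglia also express), 3.20 to 6.07 and 2.89 to 10.3 for neurons (Snap25) and 65.6 to 76.8 and 72.6 to 75.7 for oligodendrocytes (Mbp). Also at 0 in every library were Ms4a1 of the B cell list, Tek and Esam of the endothelial list, Kcnj8 and Abcc9 of the pericyte and fibroblast list and Gja1 of the astrocyte list.

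Levels of different genes were compared as CPM per kilobase of merged exons, averaged over the 7 libraries. Itgb5 was the highest at 725, followed by Itgb2 at 264, Itgb1 at 101, Itgam at 65.7 and Icam1 at 40.3, and the ranges of neighbours in this order did not overlap. Itgav at 15.3 and Itgax at 13.6 had overlapping ranges, as had Vcam1 at 2.29, Itgal at 0.977 and Itga4 at 0.274. Every library therefore held the 3 beta chain genes above all alpha chain genes measured, and the ligand gene Icam1 far above Vcam1. With the length of the longest coding transcript in place of the merged exons the order was the same, but the ranges of Itgam and Icam1, and of Itgax and Vcam1, overlapped as well.

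**Figure D1:**
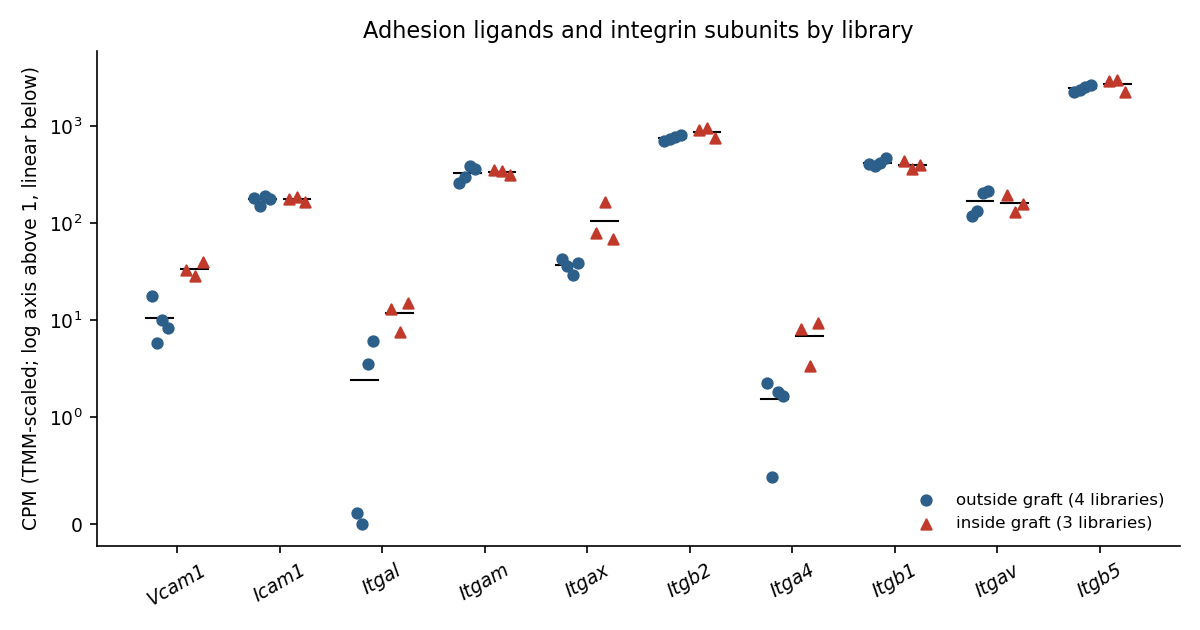
Scaled CPM of the 10 genes (y axis, logarithmic above 1 and linear below) in each of the 4 outside libraries (blue circles) and the 3 inside libraries (red triangles), with the group mean as a line. Vcam1, Itgal, Itgax and Itga4 have all inside libraries above all outside libraries, while the groups overlap for the other 6 genes.

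The comparison of inside with outside asked how the microglia of the graft differ from those of the tissue around it. The 10 genes were picked by name with this difference in view, so the values below are a description without a test. All 3 inside libraries were higher than all 4 outside libraries for 4 of the 10 genes (Vcam1, Itgal, Itgax and Itga4), beside 5.65% of all genes tested, and all were lower for 0 of 10, beside 5.02%. At an adjusted P below 0.05 edgeR called 0 of the 10 genes, beside 0.0983% of all genes tested, voomWithQualityWeights called 2 (Vcam1 and Itgax), beside 0.492%, and DESeq2 called 3 (Vcam1, Itgax and Itga4), beside 2.76% of the genes to which it gave an adjusted P. Without adjustment, P was below 0.05 for 3 of the 10 in edgeR, beside 9.55%, and for 4 in voomWithQualityWeights, beside 12.2%. Nothing is read from these counts, because the choice of genes used the same contrast. The median log2 fold change of the 10 genes was 0.18, and that of all genes tested was -0.0064.

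**Figure D2:**
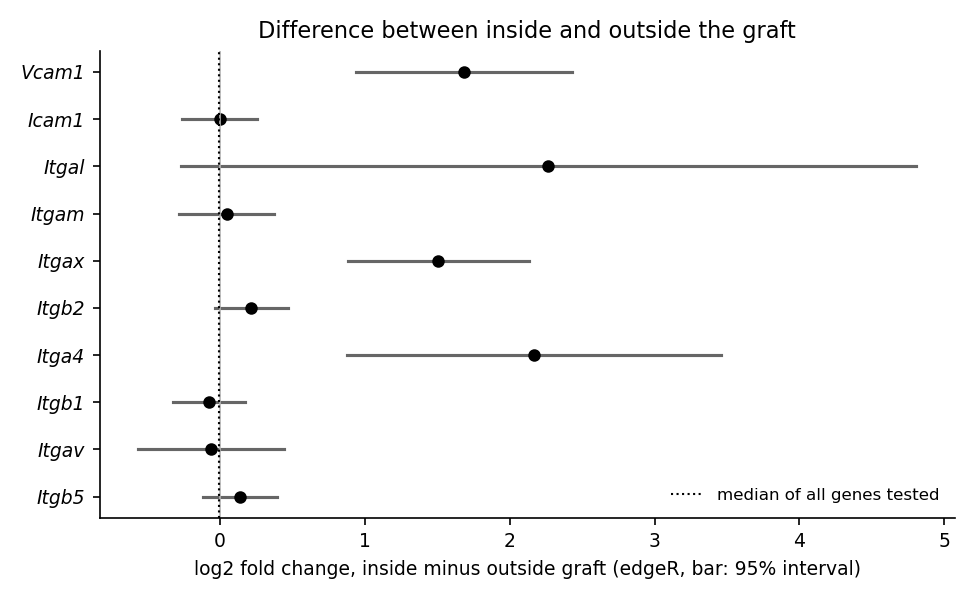
Log2 fold change of each gene, inside minus outside the graft (x axis, edgeR), with its 95% interval as a bar and the median of all genes tested as a dotted line. The points for Vcam1, Itgal, Itgax and Itga4 lie between 1.51 and 2.27, and those for the other 6 genes lie between -0.08 and 0.22.

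Vcam1 encodes a ligand of the immunoglobulin superfamily best known from inflamed endothelium, and it was low in every library. Its level was 33.0, 28.0 and 39.3 CPM in inside graft 1, 2 and 3 and 17.7, 5.83, 10.0 and 8.18 CPM in outside graft 1 to 4. The groups did not overlap, and outside graft 1 was the nearest to the inside libraries. The inside mean was 33.5 ± 5.66 CPM (SD, n = 3) and the outside mean 10.4 ± 5.15 (n = 4), a log2 fold change of 1.68 ± 0.34 (SE; 95% interval 0.94 to 2.43), or 3.21-fold. The 7 endothelial markers summed to 2.51, 4.62 and 0.843 CPM in inside graft 1, 2 and 3 and to 6.19, 0.178, 0.805 and 2.07 CPM in outside graft 1 to 4. Among the outside libraries the sum was highest in outside graft 1, as Vcam1 was, and among the inside libraries it was lowest in inside graft 3, where Vcam1 was highest. Tek and Esam were at 0 in every library, and Flt1, the most abundant, was at 2.17 ± 2.03 CPM inside and 0.988 ± 1.22 outside. The gene lies on the minus strand at chr3:116109949-116129688 (GRCm38), and the antisense model Gm43109, which shares exon bases with it, had at most 3 counts.

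Siglec1, a sialic acid-binding lectin of macrophages, had a pattern like that of Vcam1 across the 7 libraries, with a root mean square difference of 0.30 in mean-centred log2 CPM. Siglec1 was at 19.6, 18.4 and 34.2 CPM in the 3 inside libraries and at 17.9, 4.85, 5.43 and 6.40 CPM in the 4 outside libraries. As for Vcam1, outside graft 1 was the highest of the outside libraries.

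Icam1, the ligand of LFA-1 and Mac-1, was at 175, 187 and 165 CPM inside and at 183, 151, 191 and 179 CPM outside. All 3 inside values fell within the range of the outside values. The log2 fold change was -0.0020 ± 0.12 (SE), with a 95% interval of -0.26 to 0.26, so a difference of more than about 0.26 on the log2 scale in either direction lies outside the interval. Cant1 and Sncaip had the most similar patterns, with root mean square differences of 0.045 each, and ran from 140.4 to 171 CPM and from 55.2 to 66.8 CPM over the 7 libraries. In CPM per kilobase, Icam1 stood at 10.8, 13.6 and 8.51 times Vcam1 in the inside libraries and at 21.03, 52.7, 38.9 and 44.4 times in the outside libraries. The 2 ligand genes were thus nearer to each other in every inside library than in any outside library.

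Among the alpha chains that pair with the beta2 chain, Itgam and Itgax lie side by side on chromosome 7, at chr7:128062640-128118491 and chr7:128129547-128150657 on the plus strand (GRCm38), and Itgal lies on the same strand at chr7:127296260-127335138. Of the 10 genes, 7 had a promoter in the RefSeq table used here (GRCm38.p6), and 4 are shown because their genes contrast in these libraries. Itgax and Itga4 were higher in every inside library, whereas Itgam and Icam1 had overlapping groups. Each sequence is the 250 bases before the RefSeq start, 5′ to 3′ on the plus strand, and capitals mark matches to 6 short motifs searched on both strands.
Itgax, chr7:128129300-128129549: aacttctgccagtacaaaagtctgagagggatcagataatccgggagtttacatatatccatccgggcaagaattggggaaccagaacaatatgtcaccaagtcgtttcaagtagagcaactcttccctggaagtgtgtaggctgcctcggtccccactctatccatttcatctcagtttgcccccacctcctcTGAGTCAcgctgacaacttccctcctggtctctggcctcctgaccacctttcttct
Itgam, chr7:128062390-128062639: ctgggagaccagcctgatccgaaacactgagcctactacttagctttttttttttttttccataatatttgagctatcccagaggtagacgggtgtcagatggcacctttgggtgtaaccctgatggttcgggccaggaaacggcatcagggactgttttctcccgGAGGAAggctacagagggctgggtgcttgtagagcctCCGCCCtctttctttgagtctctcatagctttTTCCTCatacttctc
Itga4, chr2:79255176-79255425: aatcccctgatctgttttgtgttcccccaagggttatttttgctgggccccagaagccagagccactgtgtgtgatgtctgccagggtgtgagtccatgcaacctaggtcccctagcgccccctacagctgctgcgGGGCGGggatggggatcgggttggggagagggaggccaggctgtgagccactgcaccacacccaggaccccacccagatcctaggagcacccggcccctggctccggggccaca
Icam1, chr9:21015690-21015939: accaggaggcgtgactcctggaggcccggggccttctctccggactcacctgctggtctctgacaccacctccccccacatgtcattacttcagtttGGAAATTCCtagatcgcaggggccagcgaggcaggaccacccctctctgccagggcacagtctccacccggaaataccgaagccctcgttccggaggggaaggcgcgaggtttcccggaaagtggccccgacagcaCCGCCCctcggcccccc

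The neighbours Itgam and Itgax held different motifs in these windows. The Itgam window had the core of the myeloid factor PU.1 (GAGGAA) once on each strand, 84 and 15 bases before the start, and an Sp1 site (GGGCGG), while the Itgax window had neither and held an AP-1 site (TGANTCA, a palindrome) 56 bases before the start. The Itga4 window had 1 Sp1 site, and the Icam1 window had an Sp1 site 17 bases and an NF-kB-like site (GGAANTTCC) 153 bases before the start. Among the 7 windows the PU.1 core was also in that of Itgav, once on each strand, 218 and 7 bases before the start. The Itgb1 window held it 9 bases before the start. A TATA box (TATAAA) was in none of the 7 windows, and an interferon response element (GAAANNGAA) was in that of Itgav alone. Over the 32851 windows of the same length in the table, 23.3% held the PU.1 core, 6.75% the AP-1 site, 32.7% the Sp1 site, 0.813% the NF-kB-like site, 12.4% the TATA box and 7.13% the interferon response element. A match describes the letters only.

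Itgal, the alpha chain of LFA-1, showed the widest spread of the 10 genes. It had 327, 169 and 354 counts inside, or 12.8, 7.50 and 14.9 CPM, and 2, 0, 87 and 150 counts outside, or 0.107, 0, 3.50 and 6.07 CPM. Every inside library was above every outside library, but outside graft 4 came close to inside graft 2, and the first 2 outside libraries were at or near 0. The log2 fold change was 2.27 ± 1.14 (SE), with a 95% interval of -0.27 to 4.80 that included 0. Without outside graft 4 it was 3.26. Itgal is also a gene of neutrophils, monocytes and lymphocytes.

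Itgam, the alpha chain of Mac-1, was the most abundant of the alpha chain genes followed in this report. It was at 351, 346 and 311 CPM inside and at 259.6, 295, 389 and 357 CPM outside, and the inside values fell within the outside range. The log2 fold change was 0.05 ± 0.15 (SE; 95% interval -0.28 to 0.37), and its sign changed between alternatives, as did those of Icam1 and Itgav. The same-strand model Gm49368, which overlaps it, had at most 1.24% of the counts of both.

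Itgax, which encodes CD11c, was at 78.0, 165 and 68.4 CPM inside and at 42.5, 35.6, 29.4 and 38.4 CPM outside. The groups did not overlap, and inside graft 2 stood at more than the other inside libraries by a wide margin. The inside mean was 104 ± 53.0 CPM (SD, n = 3) and the outside mean 36.5 ± 5.50 (n = 4), a log2 fold change of 1.51 ± 0.28 (SE; 95% interval 0.88 to 2.13), or 2.84-fold. Without inside graft 2 the log2 fold change was 1.01. Of the 75-base windows of Itgax, 5.01% also occur in Itgad, whose own count was 1 to 44, and reads from those windows were not counted for either gene. Tsc22d1 and Fam20c had the patterns most like Itgax, with root mean square differences of 0.19 and 0.21 over the 7 libraries. Fam20c, a kinase of secreted proteins, was at 52.4, 88.3 and 42.1 CPM inside and 16.8 to 30.9 CPM outside, and it too was highest in inside graft 2.

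As a share of the summed CPM per kilobase of Itgal, Itgam and Itgax, Itgax made up 18.4%, 32.9% and 18.2% in inside graft 1, 2 and 3 and 14.6%, 11.2%, 7.27% and 9.99% in outside graft 1 to 4. Itgam made up 66.0% to 79.3% inside and 85.4% to 92.1% outside. Itgal stayed at 1.10% to 2.90% inside and 0% to 1.16% outside. Itgam was thus the leading alpha chain gene of this family in every library, with a smaller share in each inside library than in any outside library.

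**Figure D3:**
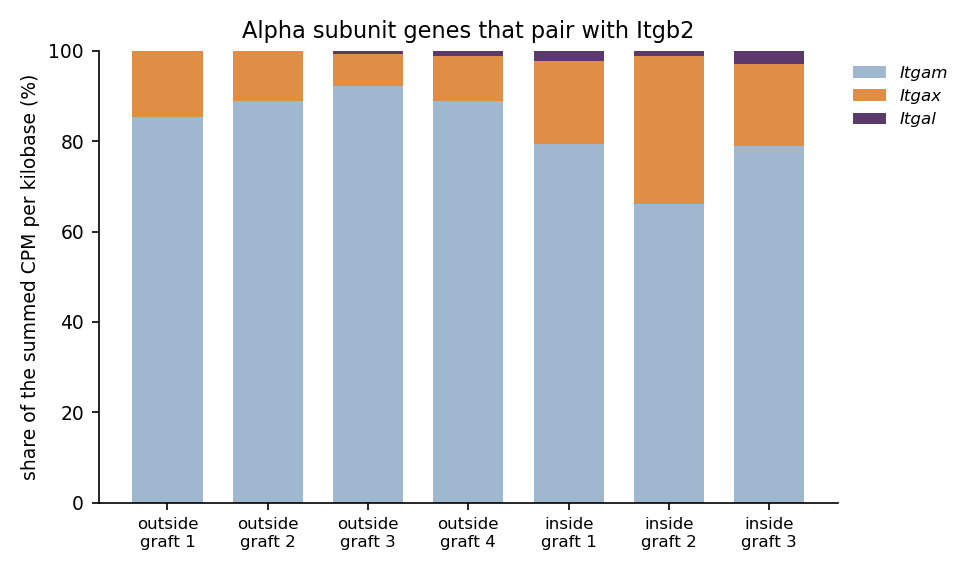
Share of Itgam, Itgax and Itgal in the summed CPM per kilobase of the 3 genes (y axis, percent) in each library (x axis). The Itgax share is 18.2% to 32.9% in the inside libraries and 7.27% to 14.6% in the outside libraries, and Itgal is the smallest share in every library.

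Itgb2, the shared beta chain, was at 920.4, 957 and 749 CPM inside and at 697, 738, 766 and 814 CPM outside. Inside graft 3 lay within the outside range and the other inside libraries lay above it. The log2 fold change was 0.22 ± 0.11 (SE; 95% interval -0.04 to 0.47). Per kilobase, Itgb2 was 2.98 to 3.77 times the sum of its 3 alpha chain genes, with overlapping ranges of 3.01 to 3.43 inside and 2.98 to 3.77 outside.

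Itga4, the alpha chain of the VCAM-1 receptor VLA-4, was the lowest of the 10 genes per length. It had 204, 75 and 221 counts inside (8.01, 3.33 and 9.31 CPM) and 42, 10, 45 and 40 counts outside (2.24, 0.445, 1.81 and 1.62 CPM). All inside libraries lay above all outside libraries, with inside graft 2 the nearest to them. The log2 fold change was 2.17 ± 0.58 (SE; 95% interval 0.88 to 3.46), or 4.50-fold. Cerkl, on the opposite strand, shares exon bases with Itga4 and had 0 to 16 counts, up to 27.6% of the counts of both in a library. Strand was not used in counting, so reads in the shared bases cannot be assigned.

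The groups overlapped for its partner Itgb1. It was at 434, 364 and 397 CPM inside and at 409, 386, 418 and 466 CPM outside, with a log2 fold change of -0.08 ± 0.11 (SE; 95% interval -0.33 to 0.17). Per kilobase, Itgb1 was 146 to 375 times Itga4 inside and 625 to 2975 times Itga4 outside, so the 2 genes of VLA-4 were far apart in level in all libraries. The ligand Vcam1 and the receptor chain Itga4 were both higher in the inside libraries, while the beta chain was not.

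Of the 4 genes that were higher in the inside libraries, Itgal, Itga4 and Vcam1 were each highest in inside graft 3 and lowest, among the inside libraries, in inside graft 2, as were the sums of the neutrophil markers (6486, 648 and 13618 CPM in inside graft 1, 2 and 3) and of the monocyte markers (651, 76.6 and 1356 CPM). The sums of border-associated macrophages (113, 16.7 and 121 CPM), dividing cells (88.2, 62.3 and 90.7 CPM) and dendritic cells (14.6, 10.0 and 22.6 CPM) had the same order, as had those of T and NK cells, neurons and oligodendrocytes. Itgax had another order: it was highest in inside graft 2, where those sums were lowest. In the outside libraries Vcam1 and Itga4 were highest in outside graft 1, where the neutrophil sum was 0.640 CPM, and lowest in outside graft 2. The border-associated macrophage sum (17.8, 5.96, 10.3 and 15.7 CPM in outside graft 1 to 4) had the same highest and lowest library. So had the endothelial, pericyte and fibroblast, astrocyte and neuron sums. Itgal was highest in outside graft 4, where the neutrophil sum was 18.1 CPM, as were the sums of monocytes (6.35, 14.4, 23.1 and 26.8 CPM), B cells and microglia. The sums of dividing cells and dendritic cells were highest in outside graft 2. With bulk libraries, a different number of cells of a type and a different amount of RNA per cell cannot be told apart, and the part of other myeloid cells and of dividing cells in these 4 differences was not tested.

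**Figure D4:**
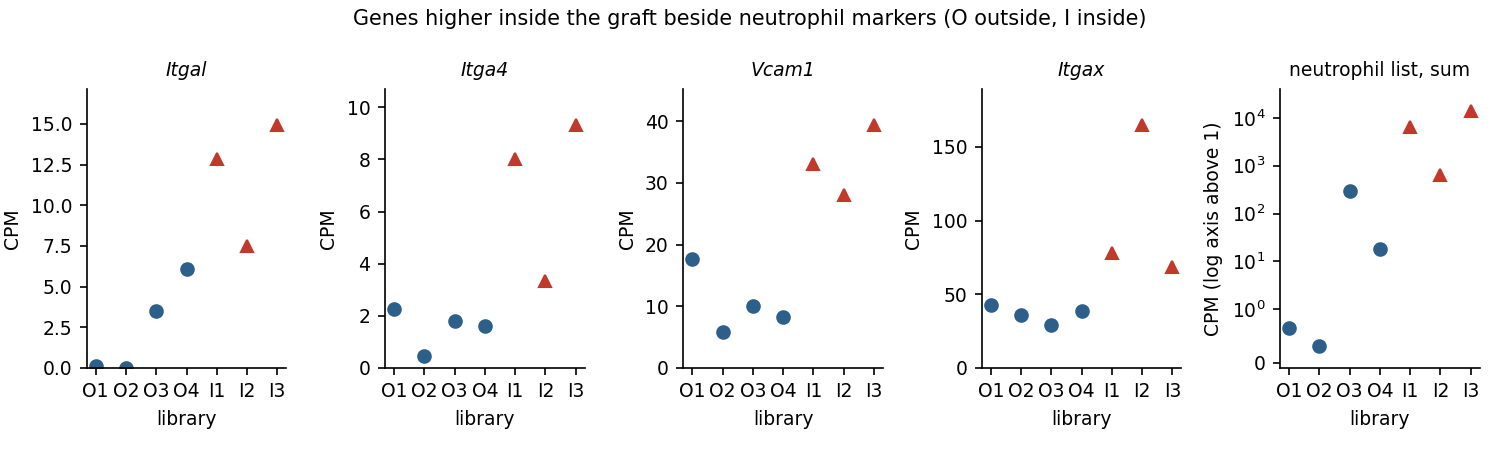
CPM of Itgal, Itga4, Vcam1 and Itgax (linear axes from 0) and the summed CPM of the 6 neutrophil markers (logarithmic above 1) in outside graft 1 to 4 (O, blue circles) and inside graft 1 to 3 (I, red triangles). Inside graft 2 is the lowest inside library for Itgal, Itga4, Vcam1 and the neutrophil sum and the highest for Itgax.

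Itgb5 was the most abundant of the 10 genes in every library. It was at 2924, 2979 and 2252 CPM inside and at 2242, 2381, 2564 and 2678 CPM outside, with overlapping groups and a log2 fold change of 0.14 ± 0.11 (SE; 95% interval -0.11 to 0.40). Plxdc2, a plexin domain membrane protein, and Clptm1 had the patterns most like it, with root mean square differences of 0.044 and 0.051 over the 7 libraries. Plxdc2 was at 1633, 1616 and 1267 CPM inside and 1220 to 1532 CPM outside, so that, like Itgb5 and Itgb2, it was lowest among the inside libraries in inside graft 3. Per kilobase, Itgb5 was 2.58 to 2.73 times Itgb2 inside and 2.76 to 2.88 times outside, and the 2 ranges did not overlap although neither gene on its own separated the groups. The gap between 2.73 and 2.76 was narrow, and how often ratios of other gene pairs separate the groups was not computed.

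Itgav, the alpha chain that pairs with the Itgb5 product, was at 194, 129 and 158 CPM inside and at 117, 133, 204 and 213 CPM outside. Its range outside enclosed the inside values, and the log2 fold change was -0.06 ± 0.23 (SE; 95% interval -0.56 to 0.44). Per kilobase, Itgb5 was 38.0 to 70.1 times Itgav, with a mean of 49.5 over the libraries. With the longest coding transcript as length, the mean was 35.2. The antisense model Gm13684 had at most 4.93% of the counts of both.

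Of 88 other adhesion genes in 6 lists, 64 were tested. At an adjusted P below 0.05, edgeR and voomWithQualityWeights each called 0 of them, and DESeq2 called 6, beside 0.0983%, 0.492% and 2.76% of all genes. Without adjustment, edgeR gave P below 0.05 for 16 of the 64 (25%, 12 higher and 4 lower inside), beside 9.55% of all genes tested, and voomWithQualityWeights for 14, beside 12.2%. The 9.55% is also the share to set beside the unadjusted edgeR counts of the single lists, which hold few genes each. The groups did not overlap for 10 of the 64, 6 with the inside libraries higher and 4 with them lower, beside the same 5.65% and 5.02%. Their median log2 fold change was 0.02.

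Of the 19 other integrin subunit genes 9 were tested, and edgeR gave P below 0.05 without adjustment for 1 that was higher and 0 that were lower inside, with a median log2 fold change of -0.16. The most abundant per length were Itga6, a laminin receptor chain (447 ± 33.4 CPM inside and 485 ± 45.3 outside), Itga9 (117 ± 34.3 and 161 ± 29.8) and Itgb3, another partner of the Itgav product (69.8 ± 1.68 and 63.3 ± 10.9). Their adjusted P in edgeR was 0.83, 0.52 and 0.85. Itgb6, a further beta chain that pairs with the Itgav product, was at 0 in every library. Itgb2l, a beta2-like chain chosen here after its values were seen, was at 30.7, 2.26 and 65.8 CPM inside and at 0, 0, 1.29 and 0 CPM outside (adjusted P = 0.093 in edgeR), in the same order of inside libraries as the neutrophil sum.

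Of 15 other leukocyte adhesion genes 11 were tested, of which edgeR gave 4 higher and 3 lower genes without adjustment, with a median log2 fold change of 0.61. Selplg, the P-selectin ligand PSGL-1, was the most abundant per length, at 4783 ± 564 CPM inside and 5974 ± 434 outside (log2 fold change -0.32 ± 0.097, SE, adjusted P = 0.26 in edgeR), ahead of the junctional adhesion molecules F11r and Jam2 (adjusted P = 0.66 and 0.97). Icam4 and Sele, the gene of E-selectin, were at 0 in every library. Chosen after its values were seen, Cd44, a hyaluronan receptor, was at 17.9, 10.9 and 27.9 CPM inside and 0.107 to 2.997 CPM outside (log2 fold change 3.22 ± 0.70, SE, adjusted P = 0.11 in edgeR and 0.00018 in DESeq2). Pecam1, chosen in the same way, was at 14.6 to 24.8 CPM inside and 27.3 to 41.5 CPM outside (adjusted P = 0.21 in edgeR and 0.036 in DESeq2).

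Of 12 matrix and soluble ligands 7 were tested, with 1 higher and 0 lower without adjustment in edgeR and a median log2 fold change of 0.15. Tgfb1, whose latent form is bound and activated by integrins with the Itgav product, was at 215 ± 12.2 CPM inside and 242 ± 10.3 outside (adjusted P = 0.66 in edgeR). Spp1, the gene of osteopontin, an RGD ligand of those integrins, was at 23.0, 75.2 and 17.0 CPM inside and 3.34 to 8.99 CPM outside (log2 fold change 2.55 ± 0.51, SE, adjusted P = 0.092 in edgeR and 2.9e-05 in DESeq2), and like Itgax it was highest in inside graft 2. Mfge8, a bridging ligand for apoptotic cells, was at 32.8 ± 14.4 CPM inside and 29.6 ± 8.55 outside (adjusted P = 0.95).

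Of 19 integrin activators and inhibitors 16 were tested, with 2 higher and 1 lower without adjustment in edgeR and a median log2 fold change of -0.0054. Rap1b, a small GTPase upstream of integrin activation, Fermt3, the kindlin of blood cells, and Fyb, an adaptor of the same pathway, led this list at 515 ± 76.4, 582 ± 12.4 and 409 ± 44.5 CPM inside and 527 ± 12.6, 664 ± 31.5 and 362.8 ± 31.4 outside (adjusted P = 0.97, 0.57 and 0.73 in edgeR). Of 18 genes of integrin signalling and adhesion complexes 16 were tested, with 2 higher and 0 lower without adjustment and a median of 0.06. The Src-family kinase Lyn and the parvin Parvg were among its most abundant genes per length, with adjusted P of 0.77 and 0.91 in edgeR. The 5 sheddases were all tested, with 2 higher and 0 lower without adjustment and a median of 0.09, and the most abundant, Adam10, Adam15 and Adam17, the protease that sheds VCAM-1, had log2 fold changes of -0.04 ± 0.17, -0.04 ± 0.11 and 0.09 ± 0.16 (SE) with adjusted P of 0.98, 0.95 and 0.93 in edgeR. The other 3 genes called by DESeq2, named after their values were seen, were Fgr, a Src-family kinase, Vcl, the gene of vinculin, and Adam9, all higher inside (adjusted P = 0.0084, 0.010 and 0.036 in DESeq2).

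**Figure D5:**
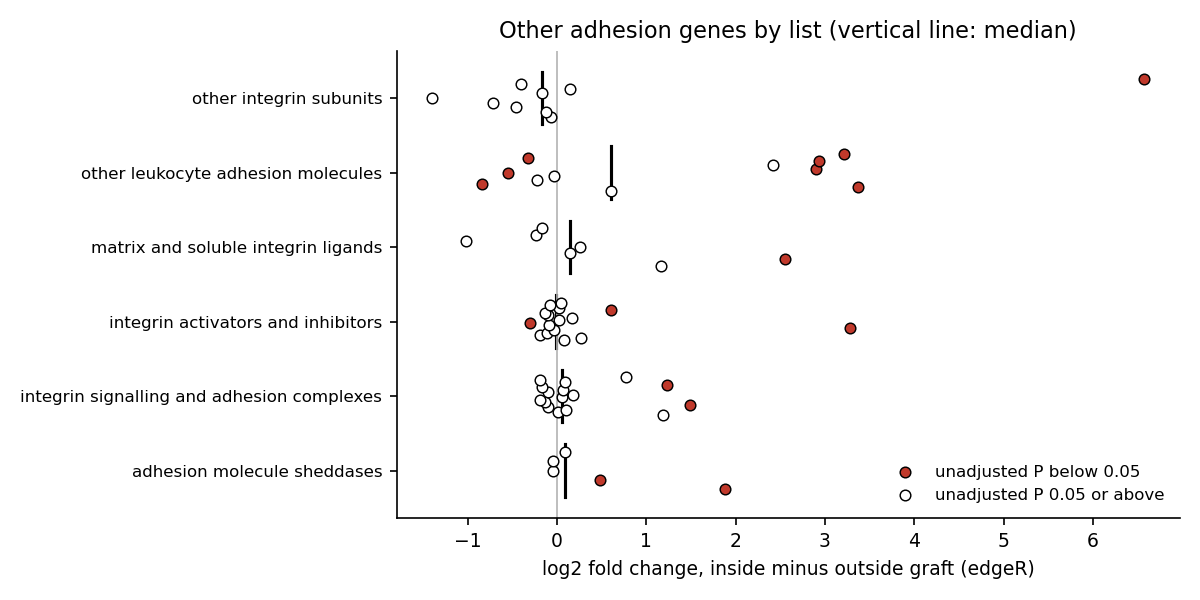
Log2 fold change, inside minus outside the graft (x axis, edgeR), of the 64 tested adhesion genes outside the 10, by list (y axis), with the median of each list as a vertical line. Red points mark the 16 genes with an unadjusted P below 0.05, and an adjusted P below 0.05 was reached by 0 of them in edgeR.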

How the data were processed

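Bulk RNA-seq of sorted microglia was analysed for 3 inside graft and 4 outside graft libraries, grouped by the labels. The authors made SMART-Seq v4 and Nextera XT libraries, aligned single 75-base reads with STAR 2.7.2a to GRCm38.p6 (GENCODE M21) and deposited featureCounts 1.6.2 output as raw counts summed by gene name, without strand, normalization or reads that map to several places. Because reads were amplified and carry no molecular identifier, a count is not a number of molecules.

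CPM used TMM-scaled totals, and levels between genes used the deposited merged exon length. Tests ran over the 15257 genes left by filterByExpr, with edgeR 4.0.16 glmQLFit and glmQLFTest (robust=FALSE) as the main test, limma 3.58.1 voomWithQualityWeights as used by the study, and DESeq2 1.42.0 as an alternative, in R 4.3.3. Adjusted P (Benjamini-Hochberg) was held to 0.05, with the 0.01 of the study as an alternative. The SE of an edgeR fold change was its absolute log2 value divided by the square root of F. Both fits were checked on simulated data.

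The 10 genes and all lists were chosen with earlier results of these data known. Named genes were the 10, in each adhesion list the called genes and the 3 highest per length, in each marker list the highest by CPM and any at 0 in every library, and the 2 genes of most similar pattern to Vcam1, Icam1, Itgax and Itgb5, leaving out unnamed gene models. Some genes that these rules name are not reported here. Alternatives were other scalings, filters, tests, weights and thresholds, the replicate number as a block and each library left out. The length of the longest coding transcript was added after seeing the data.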

Additional observations from a re-analysis of the deposited data

Results flagged for a closer look

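Over 32 values tested in the 4 outside libraries, 2 had an extreme library whose gap to the nearest other, as a part of the whole range, exceeded Dixon's 95% critical value, where chance gives about 1 in 20, or 1.6 of 32. The ratio of Itgb1 to Itga4 per kilobase was 2975 in outside graft 2, where Itga4 had 10 counts, and lay between 625 and 985 elsewhere in that group. The summed neutrophil markers reached 290.0 CPM in outside graft 3, against 0.311 to 18.1 CPM in the other 3. Groups of 3 were not tested in this way.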

How the results depend on the processing

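The median log2 fold change of the 10 genes ran from 0.11 to 0.29 over 14 alternatives. The number with groups that do not overlap was 4 with DESeq2 size factors and with library size alone, and 4 to 6 with a library left out. Apart from rescaling, leaving a library out cannot make separated groups overlap, so that range is no check on the 4. Icam1, Itgam and Itgav changed sign between alternatives (-0.07 to 0.04, -0.05 to 0.14 and -0.22 to 0.10 on the log2 scale), and Itgal reached 5.04 with the replicate block. The 15 genes that edgeR called became 366 with at least 1 count in some library, 92 with at least 10 counts in every library, 0 at an adjusted P of 0.01 and 420 with DESeq2. The 75 genes of voomWithQualityWeights became 225 and 211 under those filters, 3 at 0.01 and 10 without quality weights. With a library left out the counts ran from 0 to 73 for edgeR and from 1 to 207 for voomWithQualityWeights. They were highest without inside graft 2 (73 and 207), edgeR called 0 without inside graft 3 or outside graft 4 and 4 without outside graft 2, and voomWithQualityWeights called 1 without outside graft 3 or 4, 36 without outside graft 1 and 48 without inside graft 3. The cause was not tested.

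Of the adhesion lists, voomWithQualityWeights called 0 to 1 genes each with a library left out: Itgb2l, Cd44, Spp1, Flna and Vcl without inside graft 2, and Cd44 without outside graft 1. The sheddases stayed at 0. DESeq2 called 2 genes of the other leukocyte adhesion molecules, 1 matrix and soluble ligand, 2 genes of integrin signalling and 1 sheddase.

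The labels do not state that libraries of the same number are pairs, so the main fits did not pair them. The deviations of same-numbered libraries had correlations across genes of -0.04, 0.09 and 0.07. Such values, from few libraries, cannot decide whether animals were shared. Inside graft 2 and 3 correlated best with their own number and inside graft 1 with outside graft 4. The replicate block, which leaves out outside graft 4, gave 43 calls in edgeR and 265 in voomWithQualityWeights. The same libraries without the block gave 0 and 1, so the number of calls depended on whether the numbers were taken as pairs. Other scalings moved the median of all genes by less than 0.1 on the log2 scale. Depth limits Itga4 and Itgal most, with 10 and 0 counts in outside graft 2.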
